A study of Mus musculus with 8 samples.

Results

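Krt6a, Krt6b, Krt16 and Krt17 are keratins of stressed and wounded skin. They were taken by symbol from the gene rows of the count tables, and all 4 were found among the 23432 gene rows, which hold 52 keratin genes in all (24 type II, 27 type I and 1 other). Keratins are the intermediate filament proteins of epithelial cells, and a filament forms only when a type II keratin pairs with a type I keratin. Basal cells of the epidermis carry Krt5 with Krt14, and cells that leave the basal layer switch to Krt1 with Krt10. The stress keratins are low or absent in resting interfollicular epidermis, are induced when skin is wounded, irritated or inflamed, and have standing expression in parts of the hair follicle. Krt6a and Krt6b are type II keratins, and Krt16 and Krt17 are the type I keratins that pair with them. Krt17 is also known as an early marker of developing skin appendages.

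RNA was sequenced from 8 mouse skin libraries in 4 groups of 2. The E16.5 control and E16.5 MOF cKO libraries came from back skin epithelial cells sorted for the K14-H2BGFP reporter. The P0.5 control and P0.5 Kansl1 cKO libraries came from the whole epidermal sheet of newborn skin, lifted off the dermis with dispase and lysed without a sort. MOF cKO is MOFfl/fl/K14Cre and Kansl1 cKO is Kansl1fl/fl/K14Cre. MOF, encoded by Kat8, acetylates lysine 16 of histone H4, and Kansl1 encodes a subunit of NSL, one of its complexes. K14Cre acts in cells of the Krt14 lineage, so other cells of the skin kept the intact gene. The study used littermate controls, described for MOF cKO mice as wildtype or heterozygous, and the labels do not say which genotype each library had. Whether the libraries of a group came from separate animals is also not said, so the p-values below measure only the spread between these libraries. The stage differed between the experiments together with the isolation, so an E16.5 library and a P0.5 library differ in both.

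The libraries held between 9108709 and 27561688 counts on genes. A level below is in CPM, the count of a gene relative to the size of its library after TMM scaling over all 8 libraries, and its error is the SD of 2 libraries. A log2 fold change comes from edgeR's quasi-likelihood fit of that comparison alone, with its own scaling, so it differs slightly from the ratio of the mean CPM. A gene was called when its adjusted p was at most 0.01 and its fold change over 1.5. Kat8 stood at 12.9 and 13.0 CPM in the E16.5 controls and at 11.6 and 13.1 CPM in the MOF cKO libraries. Its count over the whole gene therefore did not separate the MOF cKO libraries from the controls, and the exons that the MOF allele loses were not looked at separately. Kansl1, whose allele loses 1 exon, stood at 44.9 and 53.1 CPM in the P0.5 controls and at 35.0 and 32.5 CPM in the Kansl1 cKO libraries, which was lower in both, but its log2 fold change of -0.52 did not pass the test (adjusted p = 0.242, edgeR). None of the 13031 genes tested in that comparison was called, so the miss is not particular to Kansl1. The study reports the deletion of this exon by genotyping, qPCR and RNA-seq. The labels are used as given. Krt5, Krt14 and the other 5 epithelial markers had counts in all 8 libraries, with a summed level from 18550 to 36930 CPM.

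The 4 genes sit in the 2 keratin clusters of the mouse genome. On mm10 (GENCODE M21 gene models), Krt6a lies on the minus strand at chr15:101689910-101694307 and Krt6b on the same strand at chr15:101676023-101680287, 9622 bp apart. Krt16 lies on the minus strand at chr11:100246091-100248902 and Krt17 at chr11:100256217-100261029, also on the minus strand and 7314 bp away. The first 60 coding bases of each gene are shown because the likeness of the neighbours bears on how well their reads can be told apart. In both pairs they lie in exon 1, and capitals mark the bases that differ between the members of the pair at the same position.
Krt6a: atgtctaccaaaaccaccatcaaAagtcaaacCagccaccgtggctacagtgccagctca
Krt6b: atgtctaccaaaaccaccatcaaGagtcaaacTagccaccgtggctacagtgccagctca
Krt16: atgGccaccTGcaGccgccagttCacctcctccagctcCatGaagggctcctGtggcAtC
Krt17: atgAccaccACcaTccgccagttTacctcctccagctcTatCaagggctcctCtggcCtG
The windows were chr15:101694189-101694248 for Krt6a, chr15:101680164-101680223 for Krt6b, chr11:100248831-100248890 for Krt16 and chr11:100260906-100260965 for Krt17. Krt6a and Krt6b differed at 2 of the 60 bases and Krt16 and Krt17 at 10. Over their whole coding sequences, Krt6a and Krt6b were identical at 97.8% of 1662 aligned bases, with an identical stretch of up to 280 bases. Krt16 and Krt17 were identical at 78.2% of 1285 aligned bases, and each was nearer to Krt14, at 86.5% and 84.1%. Of all windows of 150 bases, the read length, in the Krt6a transcript 18.7% occurred unchanged in a transcript of another gene, which was Krt6b or the predicted gene Gm5478. For Krt6b the share was 18.8%, all with Krt6a, and for Krt16 it was 18.4%, all with the predicted gene Gm11597. Krt17 had no shared window. The counter set reads with more than 1 alignment apart (8.57% to 15.4% of the entries of a library), so the counts of Krt6a, Krt6b and Krt16 are uncertain by the reads from these shared stretches. The study's methods describe paired reads, and a window stands for 1 read of a pair, so these shares are not those of whole pairs. Gm5478 itself had between 0 and 4 counts in every library.

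Krt6a, Krt6b and Krt16 rose steeply in MOF cKO epithelium at E16.5, while Krt17, already abundant in the control, did not pass the test. Krt6a went from 14.2 ± 1.01 CPM in control to 1373 ± 42.9 CPM in MOF cKO, Krt16 from 38.6 ± 2.62 to 1795 ± 204 CPM, and Krt6b from 0.770 ± 0.185 to 275 ± 120 CPM (SD, n = 2 each). By these measures 3 of the 4 stress keratins were called higher and none was called lower, where 10% of the 13956 genes tested were called higher and 9.59% lower. The split of all called genes was 1395 higher and 1338 lower, and 769 and 2743 when libraries were scaled by size alone, a scaling under which the same 3 genes were called higher.

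Krt6a, a type II keratin of the follicle's companion layer and of wounded epidermis, had 465 and 468 counts in the E16.5 controls and 28796 and 35205 counts in MOF cKO. On the CPM scale that was 13.5 and 14.96 in the controls and 1342 and 1403 in MOF cKO. The replicates of each group lay close together and the groups were far apart. The fitted change was 91.6-fold, a log2 fold change of 6.52 (SE 0.132, 95% interval 6.21 to 6.83, adjusted p = 2.29e-06, edgeR's quasi-likelihood test). Krt6a had the smallest p of all 13956 genes.

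Krt6b, its close copy, was nearly silent in the E16.5 controls, with 31 and 20 counts, and had 4075 and 9041 counts in MOF cKO. Its CPM were 0.902 and 0.639 in the controls and 190 and 360 in MOF cKO. The MOF cKO replicates differed 1.90-fold, more than for the other 3 genes, and both stood far above the controls. The log2 fold change was 8.39 (SE 0.399, 95% interval 7.45 to 9.32, adjusted p = 9.10e-05), the largest of the 4 and number 16 of all genes tested by size of rise.

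Krt16, the type I partner, had 1263 and 1265 counts in the controls and 35418 and 48663 in MOF cKO, which was 36.7 and 40.4 CPM against 1651 and 1939 CPM. Again the groups did not overlap. The rise was 44.2-fold, with a log2 fold change of 5.47 (SE 0.1404, 95% interval 5.14 to 5.79, adjusted p = 6.63e-06), and Krt16 had the second smallest p of all genes.

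Krt17 was unlike the other 3 in having high counts in every library. Its CPM were 1397 and 1946 in the E16.5 controls and 2148 and 3070 in MOF cKO. The lowest MOF cKO library lay above the highest control, but the replicates differed by about as much as the groups did. The log2 fold change of 0.57 (SE 0.205, 95% interval 0.0875 to 1.05) did not reach the threshold with edgeR (adjusted p = 0.0632). With DESeq2 it did (log2 fold change 0.59, adjusted p = 0.00356), so that all 4 genes were called higher by DESeq2, which called 13.0% of all genes higher. Without control replicate 2, edgeR called Krt17 as well (log2 fold change 0.83, adjusted p = 0.00113), with the remaining control assumed to vary like the MOF cKO group. In all 4 genes both MOF cKO libraries lay above both controls, a pattern that 38.7% of the genes tested showed.

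**Figure D1:**
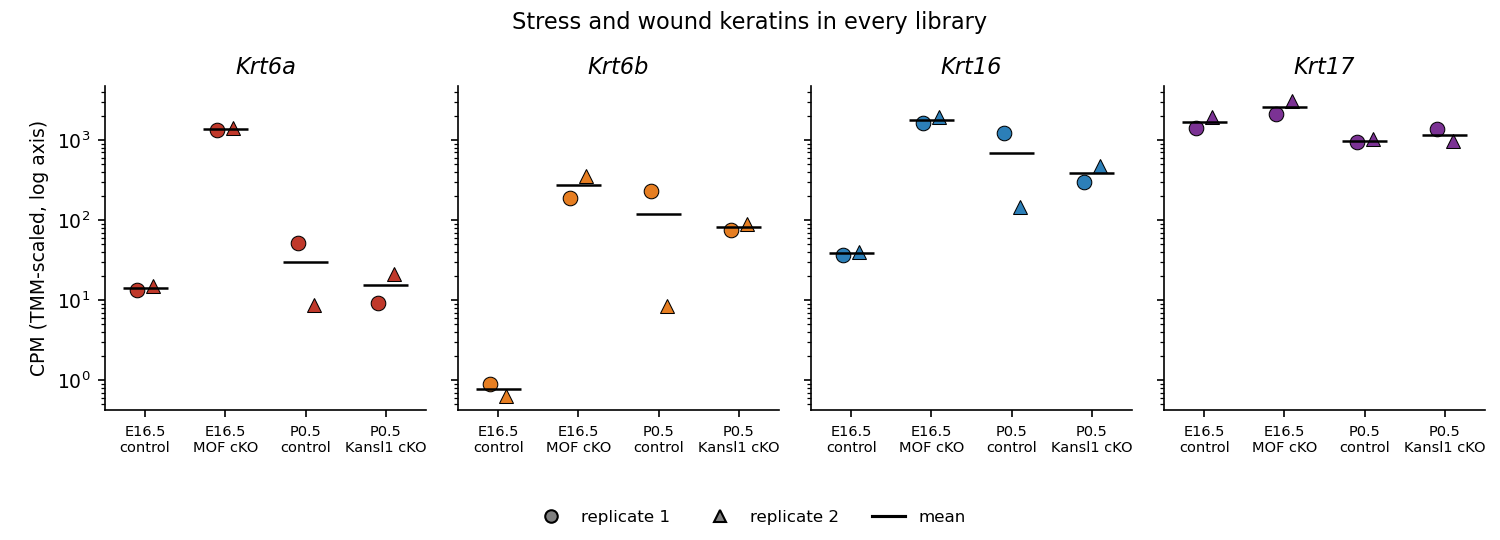
Level of each stress keratin in every library, in TMM-scaled CPM on a log axis, by group; circles are replicate 1, triangles replicate 2 and bars the mean of 2. Krt6a, Krt6b and Krt16 stood far higher in MOF cKO than in the E16.5 controls, Krt17 was high throughout, and the 2 P0.5 controls lay apart in Krt6a, Krt6b and Krt16.

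The order of the genes, compared per length as CPM per kb of exon, was the same in control and MOF cKO at E16.5, but the gaps closed. In the E16.5 controls Krt17 led with 1077 ± 250 CPM per kb, followed by Krt16 with 24.7 ± 1.67, Krt6a with 5.89 ± 0.420 and Krt6b with 0.345 ± 0.0830. In MOF cKO Krt17 stood at 1682 ± 420 CPM per kb, Krt16 at 1147 ± 130, Krt6a at 568 ± 17.7 and Krt6b at 123 ± 53.9. No 2 neighbours in either order had overlapping libraries. The level of Krt16 was 0.0261 and 0.0206 of that of Krt17 in the controls and 0.762 and 0.626 of it in MOF cKO. Krt6a stood 13.9 and 21.6 times above Krt6b in the controls and 6.53 and 3.6 times above it in MOF cKO, per length.

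The partners moved into closer balance as well. Per length, the 2 type I members together stood 154 and 198 times above the 2 type II members in the E16.5 controls, where Krt17 made up nearly all of the type I level. In MOF cKO the ratio was 3.81 and 4.34. Without Krt17, Krt16 stood at 3.91 and 3.99 times the summed Krt6a and Krt6b in the controls and at 1.65 and 1.67 times in MOF cKO.

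The share of the whole keratin pool held by the 4 genes also rose with their levels. Of the summed CPM per kb of all keratin genes they held 5.34% and 7.68% in the E16.5 controls and 16.2% and 16.7% in MOF cKO. Krt6a, Krt6b and Krt16 alone held 0.169% and 0.193% in the controls and 8.89% and 8.33% in MOF cKO. Krt17 held 5.17% and 7.49% in the controls and 7.26% and 8.33% in MOF cKO, values that overlap.

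**Figure D2:**
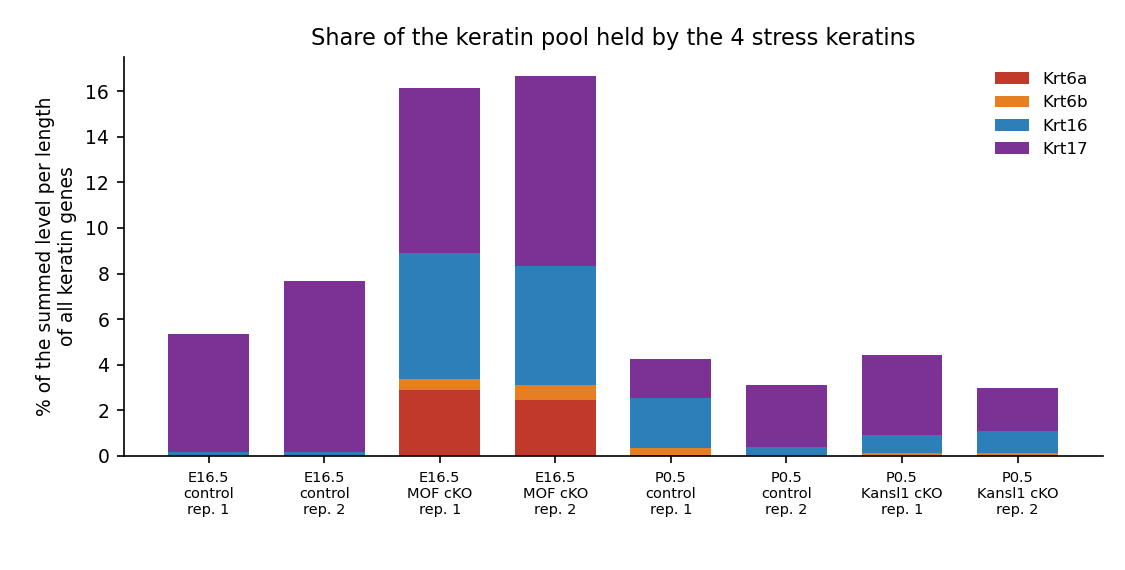
Share of the summed level per length (CPM per kb) of all keratin genes held by each of the 4 stress keratins, in percent, for each library, stacked from 0. Krt17 was nearly all of the share in the E16.5 controls, and in both MOF cKO libraries Krt6a and Krt16 added to it for a total of 16.2% and 16.7%.

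The other keratins that edgeR called at E16.5 changed less than Krt6a, Krt6b and Krt16. Of the 13 other type II keratins tested, 1 was called higher and 2 lower, and their median change was 0.11 on the log2 scale. Of the 17 other type I keratins 1 was called higher and 1 lower, and the median was -0.44, where the median over all genes was -0.02 and 10% and 9.59% of all genes were called. DESeq2 called 3 type II keratins higher and 2 lower, and 2 type I keratins higher and 2 lower. It called 13.0% of all genes higher and 12.4% lower. The basal keratins Krt5 and Krt14 had log2 fold changes of -0.04 (SE 0.138) and 0.20 (SE 0.11), and neither was called. Krt1 and Krt10, the suprabasal pair, rose with log2 fold changes of 1.67 (SE 0.131, adjusted p = 0.000394) and 1.12 (SE 0.132, adjusted p = 0.00105). Within suprabasal cells the study's single-cell RNA has both keratins lower in MOF cKO, a comparison by cell type that bulk libraries do not make. Krt15, a keratin of basal and follicle stem cells, fell by 1.26 on the log2 scale (adjusted p = 0.000745), from 3709 and 2946 CPM to 1399 and 1531 CPM. Krt8, a keratin of simple epithelium and Merkel cells, fell by 2.47, and Krt79, a keratin of the follicle's upper opening, fell by 1.72. Krt75, which like Krt6a belongs to the companion layer, was below 1 CPM in all 4 libraries. Krt36 had no count in either control and 0.718 CPM on average in MOF cKO. It was not called by edgeR (adjusted p = 0.0120) but was called higher by DESeq2 (log2 fold change 6.95, adjusted p = 0.00340).

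**Figure D3:**
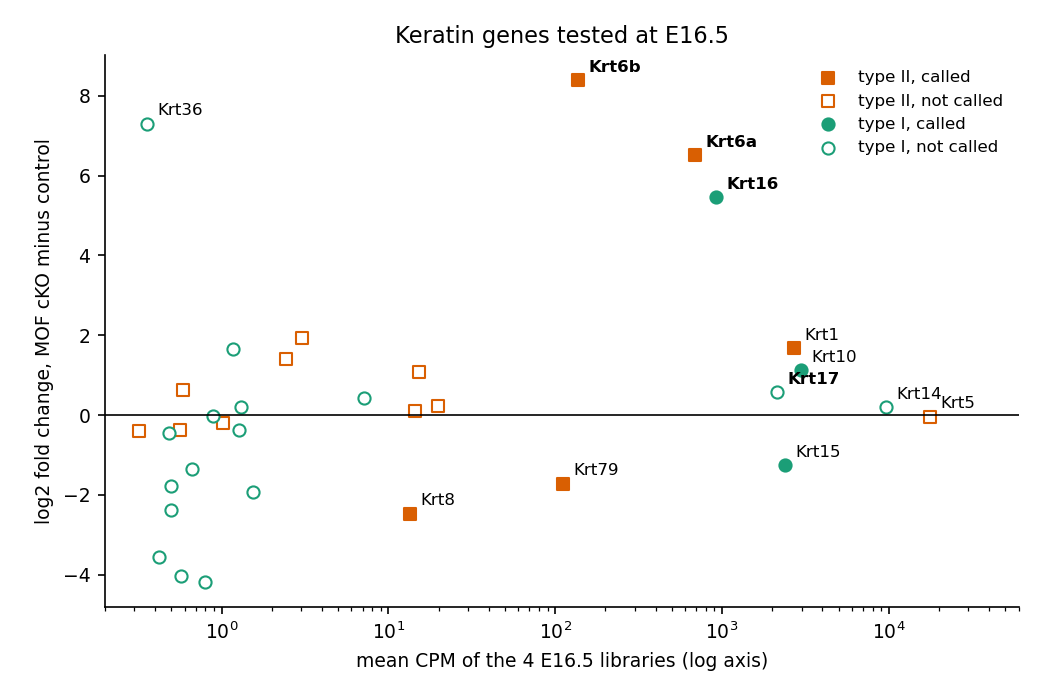
Log2 fold change of each keratin gene tested at E16.5 (MOF cKO minus control) against its mean CPM over the 4 libraries, log axis; squares are type II and circles type I keratins, filled where called. Krt6a, Krt6b and Krt16 lie between 5.47 and 8.39, while the other called keratins lie between -2.47 and 1.67. The fitted value of Krt36, at 0 in both controls, depends on the prior count of the fit.

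Genes that act with the stress keratins in irritated or wounded epidermis were looked up as lists. A list is described by its counts and its median log2 fold change. Only genes that passed the count filter were tested. A gene with few control counts passed it through its MOF cKO counts alone, so the direction of its change was fixed by the filter. Beside the list counts, edgeR called 10% of all genes tested higher and 9.59% lower at E16.5. Of the 12 alarmins and antimicrobial proteins listed, 6 were tested and 3 called higher, with a median of 3.68. It was 3.56 with Lcn2 and Lyz1, at 0 in both controls, set to the smallest change that 3 counts in the control group allow. Lcn2, Lyz1, S100a8 (3 and 7 control counts) and Slpi (3 and 6) passed the filter through MOF cKO alone. S100a9 went from 0.901 and 0.767 CPM to 9.23 and 9.05 CPM, Cd14 from 0.494 and 0.352 to 6.15 and 3.87, and Slpi from 0.0872 and 0.192 to 2.05 and 2.11. Cd14 is a surface receptor of myeloid cells, S100a9 is also abundant in them, and Slpi is a secreted protease inhibitor. Of the 16 stress-linked cornified envelope proteins found, which harden the outer layer, 7 were tested and 5 called higher, with a median of 3.81. Sprr2d (2 and 1 control counts), Sprr2h (3 and 6) and Sprr4 (5 and 4) passed the filter through MOF cKO alone. Sprr1b, a small proline-rich envelope protein, rose by a log2 fold change of 5.50 (SE 0.329, adjusted p = 0.000175), from 1.66 and 0.895 CPM to 73.7 and 49.0 CPM. Tgm1, the transglutaminase that cross-links the envelope, rose by 3.81 and involucrin (Ivl) by 4.26. Among the 17 terminal differentiation genes tested, 7 were called higher and none lower, with a median of 0.76. The study reports the opposite direction for cornified envelope genes within MOF cKO suprabasal cells by single-cell RNA, and weaker loricrin staining. The levels here are over all sorted cells, and the cause of the difference was not tested.

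Secreted signals showed the same direction. Of the 21 keratinocyte cytokines and chemokines, 16 were tested, with a median of 2.24. By edgeR 9 of the 16 were called higher and none lower, where 10% and 9.59% of all genes were called. Il1a (2 and 0 control counts), Il1b (5 and 8) and Tslp (3 and 4) passed the filter through MOF cKO alone. Tslp, an epithelial cytokine of itch and type 2 inflammation, had 3 and 4 counts in the controls and 982 and 1996 counts in MOF cKO. Ccl20 rose by 4.06 and Ccl2 by 3.74 on the log2 scale, and Il1b by 3.69 from 0.145 and 0.256 CPM. In the same libraries 8 of 10 macrophage markers were called higher, and which cells this RNA came from was not tested. Of the EGF receptor and its ligands, a pathway known to induce these keratins in wounds, 5 of 9 were called higher, with a median of 1.45. Epgn rose by 2.30, Areg by 2.27, Hbegf by 1.72 and Tgfa by 1.51.

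Migration and wound edge genes gave a wider spread, with a median of 0.60. Of 20 tested, 8 were called higher and 1 lower, where 10% and 9.59% of all genes were called. Mmp9, a matrix protease, went from 2.09 and 2.08 CPM to 97.6 and 132 CPM (log2 fold change 5.70, adjusted p = 4.16e-05). Mmp13 had 0 and 2 counts in the controls and 118 and 99 in MOF cKO, and Mmp10 had no count in either control and 4.47 and 1.44 CPM in MOF cKO. Plaur, the receptor of urokinase, rose by 2.71. Of the NRF2 pathway, the response to oxidants that also acts on these keratin genes, 5 of 15 were called higher, with a median of 0.47. Slc7a11, the cystine importer, rose by 4.33 and Srxn1 by 2.96.

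The transcription factors known at stress keratin promoters had smaller log2 fold changes than Krt6a, Krt6b and Krt16, and some had larger ones than Krt17. Of 10 AP1 factors edgeR called 1 higher, beside 10% of all genes, and DESeq2 called 2, beside 13.0% of all genes. The 1 called by edgeR was Fos, with a log2 fold change of 0.61 from 987 and 1214 CPM to 1825 and 1708 CPM, and the median was 0.05. Of 25 other factors, 6 were called higher and 1 lower, beside 10% and 9.59% of all genes, with a median of 0.38. Myc, Grhl3 and Relb each rose by 1.15, and Thra fell by 1.06. Stat3 rose by 0.59 and Trp63 had a log2 fold change of -0.57 (adjusted p = 0.00870), just inside the fold threshold and so not called. Of 18 hair placode and germ genes, the cells in which Krt17 is known to be high, none was called higher. Of these genes 5 were called lower, beside 9.59% of all genes, and the median was -0.58. Lhx2 fell by 3.18, Shh by 2.59, Trps1 by 1.46 and Edar by 1.19, while Krt17 had its log2 fold change of 0.57 in the same libraries.

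**Figure D4:**
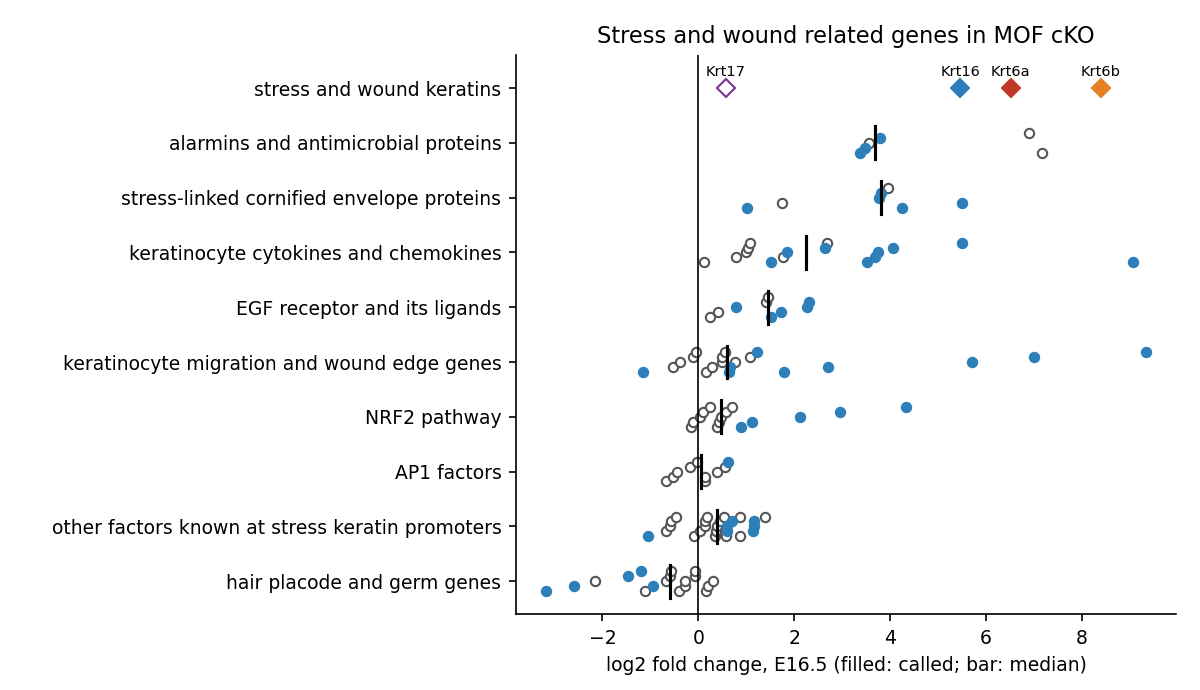
Log2 fold change (MOF cKO minus control, E16.5) of the 4 stress keratins, top row, and of each gene tested in 9 gene lists; filled points were called and bars are list medians. The keratins Krt6a, Krt6b and Krt16 lie beyond the medians of all lists shown, which run from -0.58 for hair placode and germ genes to 3.81 for cornified envelope proteins. Single genes of the lists lie higher, with Mmp10 at 9.33 and Tslp at 9.07 above each of these keratins and Mmp9 at 5.70 above Krt16. Fitted values of genes with few or no control counts depend on the prior count of the fit. Such genes passed the count filter through MOF cKO alone.

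Markers of other cell types moved in the same libraries. The summed level of 10 macrophage markers was 18.4 and 40.4 CPM in the E16.5 controls and 94.9 and 127 CPM in MOF cKO. Of these markers 8 were called higher, beside 10% of all genes. Cd14 stands in that list and among the alarmins. Tyrobp had no count in control replicate 2. Tyrobp (4 and 0 control counts), C1qa (2 and 5), Lyz2 (3 and 8) and C1qb (5 and 9) passed the filter through MOF cKO alone. The 7 fibroblast markers summed to 818 and 1374 CPM in control and 1433 and 2025 CPM in MOF cKO. Of these, edgeR called none and DESeq2 called 2 higher, beside 13.0% of all genes. The 5 melanocyte markers overlapped, with 12.0 and 40.3 CPM in control and 17.1 and 67.3 CPM in MOF cKO, and the 3 T cell markers stayed below 0.5 CPM in sum, with Cd3g and Cd3d at 0 in all 4 libraries. The 4 endothelial markers summed to 5.24 and 5.88 CPM against 9.46 and 19.7 CPM, with Pecam1 called higher, the 2 Langerhans cell markers to 5.82 and 6.26 CPM against 9.60 and 7.93 CPM, and the 3 Merkel cell markers to 7.10 and 7.06 CPM against 0.373 and 2.19 CPM. The part of these cells in the result was not tested. In bulk libraries such as these, more cells with a keratin and more RNA of it per cell cannot be told apart.

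At P0.5 no stress keratin was called in Kansl1 cKO, and for Krt6a, Krt6b and Krt16 the replicates of the control lay further apart than the groups. The fitted log2 fold changes were -0.93 for Krt6a, -0.51 for Krt6b, -0.79 for Krt16 and 0.27 for Krt17, and in each gene the 2 Kansl1 cKO libraries overlapped with the range of the controls. None of the 13031 genes tested was called by edgeR, 0% in each direction, with 2045 genes at an unadjusted p under 0.05. DESeq2 called 0.304% of 11515 genes higher and 0.573% lower, and none of the 4 keratins.

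Krt6a had 404 and 123 counts in the P0.5 controls and 171 and 254 in Kansl1 cKO, or 51.1 and 8.77 CPM against 9.21 and 21.4 CPM. Both Kansl1 cKO libraries lay between the 2 controls. The log2 fold change of -0.93 had an SE of 0.763 and a 95% interval from -2.74 to 0.889 (adjusted p = 0.595).

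Krt6b had 1832 and 120 counts in the controls and 1397 and 1060 in Kansl1 cKO, or 232 and 8.56 CPM against 75.3 and 89.1 CPM. The controls differed 27.1-fold and the Kansl1 cKO libraries 1.18-fold. The 95% interval of the log2 fold change ran from -3.13 to 2.1 (adjusted p = 0.863).

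Krt16 had 9742 and 2048 counts in the controls and 5567 and 5715 in Kansl1 cKO, or 1233 and 146 CPM against 300 and 481 CPM. Here too both Kansl1 cKO libraries lay between the controls, which differed 8.44-fold. The 95% interval was -2.73 to 1.15 (adjusted p = 0.683).

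Krt17 had 937 and 1025 CPM in the controls and 1375 and 963 CPM in Kansl1 cKO. Its libraries were the closest of the 4 genes, and the 95% interval of the log2 fold change, -0.209 to 0.746, was the narrowest (adjusted p = 0.556).

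For Krt6a, Krt6b and Krt16 a single library decided the sign. Without P0.5 control replicate 1, the log2 fold changes were 0.82 for Krt6a, 3.29 for Krt6b and 1.45 for Krt16. Without P0.5 control replicate 2 they were -1.758, -1.503 and -1.662. Without Kansl1 cKO replicate 2, Krt6a stood at -1.68 and Krt16 at -1.21, and without Kansl1 cKO replicate 1 Krt17 stood at -0.01. In each of these fits the lone library is assumed to vary like the other group, so only the sizes are given.

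The distance between the 2 P0.5 controls was large for these keratins beside other genes. Of 12663 genes with a mean of at least 1 CPM in the P0.5 controls and a count in both, 0.182% lay at least as far apart as Krt6b, 0.434% as Krt16 and 0.655% as Krt6a, and 73.5% lay at least as far apart as Krt17. The median gene differed 1.21-fold. In the Kansl1 cKO group the same shares were 46.6% for Krt6b, 11.1% for Krt16, 2.71% for Krt6a and 18.3% for Krt17.

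Some of the stress gene lists were also higher in P0.5 control replicate 1 than in replicate 2, and others were not. Terminal differentiation genes also stood higher in replicate 1, 20 of 20, with 2 of them over 2-fold and a median log2 ratio of 0.585. Of the cornified envelope proteins 7 of 10 and of the alarmins 3 of 4 were over 2-fold higher in replicate 1, and none was over 2-fold lower, where 3.61% of all genes were over 2-fold higher and 2.80% lower. Of the cytokines 11 of 11 stood higher in replicate 1, 3 of them over 2-fold, where 46.7% of all genes stood higher. Of the migration and wound edge genes 6 of 18 stood higher, none over 2-fold, with a median log2 ratio of -0.15. The medians of the EGF receptor, NRF2 and AP1 lists lay between 0.03 and 0.16. Over 2-fold higher in replicate 1 were 3 of 10, 4 of 15 and 2 of 9 of their genes, and none was over 2-fold lower. Sprr1b stood at 435 and 46.5 CPM, S100a9 at 4.68 and 0.785 CPM, Areg at 7.59 and 0.999 CPM and Slpi at 5.70 and 0.642 CPM. The suprabasal keratins Krt1, at 39100 and 19950 CPM, and Krt10, at 33030 and 18970 CPM, also stood higher in replicate 1, each under 2-fold, while Krt5 and Krt14 were slightly lower. Replicate 1 was the smallest library, with 9108709 gene counts against 14327981 in replicate 2. Of the fibroblast markers 5 of 7 were over 2-fold higher in replicate 1, with a sum of 1931 against 1205 CPM, and the macrophage markers summed to 195 and 233 CPM. The part of these differences in the keratin levels was not tested.

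The gene lists could give no edgeR call at P0.5 either, since none of the 13031 genes tested was called. None of the alarmin, cornified envelope, cytokine, EGF receptor, migration, NRF2, AP1 and hair placode genes was called by edgeR in Kansl1 cKO, and their list medians lay between -0.41 and 0.29, where the median of all genes was 0.01. DESeq2 called 1 cytokine gene higher, beside 0.304% of all genes. The melanocyte markers summed to 474 and 521 CPM in the controls and 1014 and 1092 CPM in Kansl1 cKO, the macrophage markers to 195 and 233 against 292 and 304 CPM, and the fibroblast markers to 1931 and 1205 against 1030 and 786 CPM. None of these markers was called by edgeR. DESeq2 called 3 of 5 melanocyte markers higher and 4 of 7 fibroblast markers lower, beside 0.304% and 0.573% of all genes. Their part in the keratin levels was not tested.

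**Figure D5:**
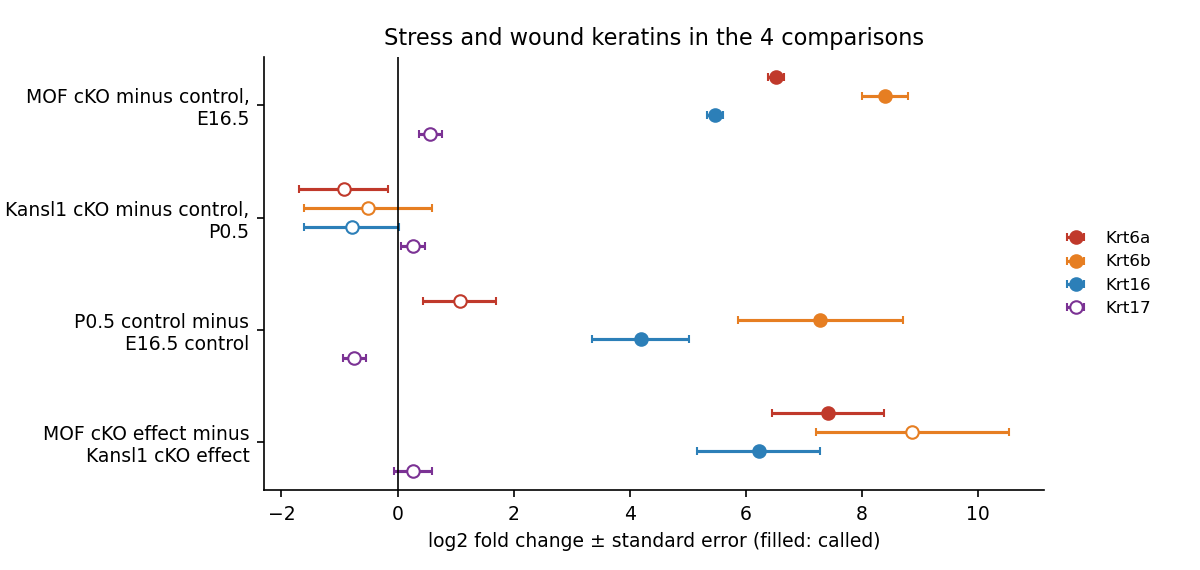
Log2 fold change of each stress keratin with its standard error in the 4 comparisons, each from edgeR's quasi-likelihood fit; filled points were called. The MOF cKO changes of Krt6a, Krt6b and Krt16 lie at 5.47 to 8.39, the Kansl1 cKO changes lie at -0.93 to 0.27 with wide errors, and the difference between the 2 effects lies at 0.27 to 8.86.

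Between the controls, Krt6b and Krt16 were higher in newborn epidermis than in sorted E16.5 epithelium. Krt6b went from 0.902 and 0.639 CPM to 232 and 8.56 CPM, and Krt16 from 36.7 and 40.4 CPM to 1233 and 146 CPM, so that even the lower P0.5 library stood above both E16.5 libraries. Their log2 fold changes were 7.28 (SE 1.42, adjusted p = 0.00308) and 4.18 (SE 0.829, adjusted p = 0.00328). Krt6a was not called, with a log2 fold change of 1.07 (SE 0.627, adjusted p = 0.176), and its E16.5 libraries lay between the 2 P0.5 libraries. Krt17 went the other way, from 1397 and 1946 CPM to 937 and 1025 CPM, and at a log2 fold change of -0.75 (SE 0.199, adjusted p = 0.0130) it missed the threshold with edgeR, while DESeq2 called it lower (adjusted p = 0.00136).

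In all, edgeR called 2 of the 4 genes higher and none lower, where it called 22.2% of 13859 genes higher and 17.6% lower, or 3070 and 2436 genes, and 2089 and 4340 when scaled by library size alone. DESeq2 called the same 2 higher, beside 24.5% of all genes, and 1 lower, beside 18.1%. Libraries that did not overlap, higher at P0.5 for 2 of the 4 and lower for 1, were found for 39.4% and 41.5% of all genes. Without P0.5 control replicate 1 the log2 fold changes were 3.48 for Krt6b and 1.94 for Krt16, both still called, and -0.68 for Krt6a, and without replicate 2 Krt6a was called higher at 1.87. Stage, isolation and experiment cannot be told apart in this comparison.

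Krt6a stood above Krt6b in every E16.5 library and below it in 3 of the 4 P0.5 libraries. Per length, Krt6a stood 13.9 and 21.6 times above Krt6b in the E16.5 controls, and Krt6b stood 4.91 and 1.06 times above Krt6a in the P0.5 controls and 8.84 and 4.51 times above it in Kansl1 cKO. In P0.5 control replicate 2 the 2 genes were level, with 123 counts of Krt6a and 120 of Krt6b, and the ratio of 1.06 there comes from the exon lengths used, 2418 and 2235 bp. In MOF cKO, where both genes were high, Krt6a was the higher of the 2. Krt17 led in 7 of the 8 libraries on the per length scale. The exception was P0.5 control replicate 1, in which Krt16 stood at 1.30 times Krt17, while in replicate 2 it stood at 0.141 of it.

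Per length, the P0.5 controls held Krt17 at 633 ± 40.4, Krt16 at 441 ± 491, Krt6b at 53.8 ± 70.7 and Krt6a at 12.4 ± 12.4 CPM per kb (SD, n = 2). Only Krt17 was steady there, and each gene overlapped with its neighbour in the order. In Kansl1 cKO the order was the same without overlaps, with Krt17 at 753 ± 188, Krt16 at 249 ± 81.6, Krt6b at 36.8 ± 4.39 and Krt6a at 6.32 ± 3.55 CPM per kb. The 4 genes held 4.24% and 3.11% of the summed keratin level per length in the P0.5 controls and 4.44% and 3% in Kansl1 cKO, less than in any E16.5 library, beside Krt1 and Krt10 that were called higher at P0.5 with log2 fold changes of 4.59 and 3.87.

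Other keratins and stress genes of the newborn libraries gave a mixed picture beside the 4. Of the other type II keratins 9 of 13 were called higher and 2 lower, and of the other type I keratins 9 of 20 higher and 1 lower. Krt23 at 9.12 and Krt78 at 8.30 had the largest fitted rises, with Krt25 at 1 and 0 counts against 75 and 140, and Krt18, Krt8 and Krt5 fell by 2.23, 1.84 and 0.81. The cornified envelope proteins tested, 10 of the 16 found, were all called higher, as were 3 of 4 alarmins. The envelope median was 7.98, or 7.07 with the 2 genes at 0 at E16.5 set to the bound from 3 counts. Genes with few E16.5 counts, such as Sprr2b, Sprr2d and Defb14, passed the filter through the P0.5 controls alone. All 20 terminal differentiation genes tested were called higher too, with a larger median of 8.63, and Ivl stands in both lists. Of 17 cytokines and chemokines 9 were called higher and 5 lower, where 22.2% and 17.6% of all genes were called. Of the 10 AP1 factors 7 were called lower, with a median of -2.66. The macrophage markers summed to 18.4 and 40.4 CPM in the E16.5 controls and 195 and 233 CPM at P0.5, and the melanocyte markers to 12.0 and 40.3 CPM against 474 and 521 CPM.

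By mean CPM, Krt6a, Krt6b and Krt16 had the same order of groups and Krt17 another. Krt6a was highest in MOF cKO at 1373 CPM, and the P0.5 controls at 30.0, Kansl1 cKO at 15.3 and the E16.5 controls at 14.2 CPM overlapped. Krt6b ran from 275 CPM in MOF cKO over 120 CPM in the P0.5 controls and 82.2 CPM in Kansl1 cKO to 0.770 CPM in the E16.5 controls, with overlaps among the first 3 through the P0.5 controls. Krt16 stood at 1795, 690, 390 and 38.6 CPM in the same groups, and only the P0.5 controls and Kansl1 cKO overlapped. Krt17 ran from MOF cKO at 2609 CPM over the E16.5 controls at 1671 CPM and Kansl1 cKO at 1169 CPM to the P0.5 controls at 981 CPM, and Kansl1 cKO overlapped with the P0.5 controls.

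Whether the keratins answered the 2 knockouts differently was tested as the difference between the 2 effects in a fit over all 8 libraries. The difference was 7.41 on the log2 scale for Krt6a (SE 0.961, 95% interval 5.24 to 9.57, adjusted p = 0.00379) and 6.22 for Krt16 (SE 1.06, 95% interval 3.84 to 8.61, adjusted p = 0.00870), both larger in MOF cKO. For Krt6b it was 8.86 with a larger error (SE 1.66, adjusted p = 0.0120) and missed the threshold. For Krt17 it was 0.27 (SE 0.319, 95% interval -0.452 to 0.984, adjusted p = 0.611). Thus 2 of the 4 were called with a larger effect in MOF cKO, where 1.76% of 14565 genes were called in that direction and 1.17% in the other, and DESeq2 called 3 of the 4, beside 6.83% of all genes. The counts over all genes were 256 and 170, and 219 and 245 when scaled by library size alone. Over the alternatives run, between 0 and 3 of the 4 were called. With a block for the replicate number in the fit 0 of the 4 were called, where 1 of 14565 genes was called higher and 0 lower. Leaving out E16.5 control replicate 1, E16.5 control replicate 2 or MOF cKO replicate 1 left none of the 4 called, with adjusted p for Krt6a of 0.0154, 0.0133 and 0.0114. Leaving out MOF cKO replicate 2, Kansl1 cKO replicate 1 or Kansl1 cKO replicate 2 left Krt6a alone called, and leaving out either P0.5 control added Krt6b, at 5.07 without replicate 1 and 9.81 without replicate 2. The knockouts differed in gene, stage and isolation together, which cannot be told apart here.

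Across the 8 libraries, Krt6b and Krt16 were the most alike of the 4, with a Pearson correlation of 0.978 of log2(CPM + 0.5), followed by Krt6a and Krt16 at 0.760 and Krt6a and Krt17 at 0.710. Krt6a and Krt6b, the near copies, stood at 0.639, and Krt16 with Krt17 at 0.209 and Krt6b with Krt17 at 0.109. These values describe 8 points in 4 groups that share stage, isolation and depth. Of 12758 other genes, Map7d1 was most like Krt6a (0.9898), Eif2s1 most like Krt6b (0.991), Rab21 most like Krt16 (0.9895) and Rab12 most like Krt17 (0.991). Map7d1 stood at 55.0 and 59.2 CPM in the E16.5 controls, 160 and 159 CPM in MOF cKO, 78.2 and 49.7 CPM in the P0.5 controls and 59.2 and 72.5 CPM in Kansl1 cKO, highest in MOF cKO like Krt6a but over a far smaller range. The genes most like the mean of the 4 were Vcp, Vdac1, Sfn, Cdc34 and Aen, of which Sfn, a 14-3-3 protein of keratinocytes, stood at 584 and 578 CPM in the E16.5 controls and 1312 and 1563 CPM in MOF cKO.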

How the data were processed

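The files hold whole-number counts per gene symbol that the authors deposited for 8 poly(A) libraries made with a directional kit. Per the labels, reads were processed with TopHat2 and HTSeq on mm10, while the study's methods name HISAT2 in place of TopHat2. The annotation and the strand setting are not given in the sources used here. Entries that name no gene (21.1% to 26.0% of a library) were left out. Counts were fitted with edgeR 4.0.16 in R 4.3.3 (TMM factors, filterByExpr, glmQLFit and glmQLFTest) and p-values were adjusted by Benjamini-Hochberg over all genes tested, for each pair of groups alone and, for the difference of effects, over all 8 libraries. The thresholds are those of the study's methods, which used DESeq2, run here as an alternative (version 1.42.0). Standard errors are the log2 fold change divided by the square root of the F statistic. Replicates differed by more than sampling noise in every group. Counting precision was set by depth, where 1 count was 0.0291 to 0.127 CPM. Lengths and sequences are from GENCODE M21, which held 98.2% of the symbols. From each gene list the text names up to 4 called genes of the largest change with a mean of at least 1 CPM, among keratins the 3 largest called rises and falls beside Krt5, Krt14, Krt1, Krt10, Krt15 and Krt75, and outside that rule Stat3, Trp63, Krt36, Lcn2, Lyz1, the knocked-out genes and the examples between the P0.5 controls, chosen with their values seen. The 4 genes and the lists were chosen with earlier results of these data known. The scripts were tested on simulated data. Alternatives were other scalings, filters, tests, thresholds, the replicate block, a joint fit and each library left out.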

Additional observations from a re-analysis of the deposited data

Results flagged for a closer look

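The change in MOF cKO at E16.5 differed from that in Kansl1 cKO at P0.5 for 2 of the 4 stress keratins, by the test of the difference itself. The calls depended on the fit, with between 0 and 3 of the 4 called over the alternatives run, and 0 with the replicate block. For Krt6a the difference of the log2 fold changes was 7.41, with both MOF cKO libraries above both controls and both Kansl1 cKO libraries between the 2 controls. For Krt16 it was 6.22, with the same arrangement of the libraries. With 2 libraries a group, no single library could be looked at for being far from the rest of its group, and the distance between the P0.5 controls stands in the report.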

How the results depend on the processing

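In MOF cKO, Krt6a, Krt6b and Krt16 were called higher under every alternative run, and Krt17 was called only with DESeq2 (0.592 on the log2 scale) and without E16.5 control replicate 2, over 0.297 to 0.834 as each library was left out. In Kansl1 cKO, leaving out each library gave -1.76 to 0.817 for Krt6a, -1.503 to 3.286 for Krt6b, -1.66 to 1.45 for Krt16 and -0.00981 to 0.478 for Krt17. Between the controls, Krt17 was called lower, as 1 of the 4, with DESeq2 (-0.711), the likelihood ratio test and an adjusted p of 0.05 (-0.748 in both), upper-quartile factors (-0.861), library size alone (-1.20), every gene with a count (-0.768), one fit of all 8 libraries (-0.865) and the replicate block (-0.729). Leaving out each library gave -0.973 to -0.487 for Krt17, with 0 to 1 called lower, and -0.677 to 1.87 for Krt6a. For the difference of effects, Krt6b was called with DESeq2 (9.01), the likelihood ratio test (8.88), library size alone (8.58), every gene with a count (8.997) and an adjusted p of 0.05 (8.86). The test against a fold change of 1.5 lost Krt16 (6.22) and left 1 of the 4 called. Leaving out each library gave 5.69 to 8.21 for Krt6a, 5.07 to 9.81 for Krt6b and 3.99 to 7.05 for Krt16, with 0 to 3 called. The cause of these changes was not tested.

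The study's methods speak of pairs of samples, but the labels do not say that a replicate number marks one, and same-numbered libraries deviated together with a correlation of 0.251 in the MOF cKO comparison, -0.256 in the Kansl1 cKO comparison and 0.0629 between the controls. With the replicate block, the difference of effects was 7.11 for Krt6a and 5.58 for Krt16 and 0 of the 4 were called, and Krt6b in Kansl1 cKO turned to 0.820, or 0.691 with the pairs crossed, an alternative chosen after seeing the data, with 0 called in both. It changed no other call but that of Krt17 between the controls. Library size alone put the median of all genes at -0.324 in MOF cKO (-0.0197 with TMM), -0.467 between the controls (-0.0107) and -0.286 for the difference (-0.0654), so its values are read relative to those. With 2 libraries a group, and 404 and 123 counts of Krt6a in the P0.5 controls, the spread between libraries and not the counting error set the width of the intervals at P0.5.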
